A study of Rattus norvegicus with 16 samples.

Results

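The transcriptional response of primary rat microglia to lipopolysaccharide (LPS) was described in 8 of the 16 libraries of the series: 4 from LPS-treated cells and 4 from untreated cells, called LPS and Control below. Microglia are the resident macrophages of the brain. The cells were wild type and had been cultured for 12 days in vitro. LPS libraries came from cells given LPS at 100 ng/ml for 20 hours with no apolipoprotein A-I (ApoA-I), and Control libraries from cells given neither agent. The other 8 libraries, from cells given ApoA-I with or without LPS, entered the filter on low counts, the scaling and the estimate of spread between replicates. They also entered the choice of 8 genes that varied together, described below. No level or difference is reported for them. Nothing in the labels says that the replicates of a group came from different cultures or animals. The p-values thus refer to the spread among these libraries, and that spread may be technical.

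LPS is a glycolipid from the envelope of Gram-negative bacteria. It is bound by CD14 and by Toll-like receptor 4 with its partner MD-2, and the receptor signals through the adaptors MyD88 and TRIF. Signalling activates NF-kB and interferon regulatory factors, and in macrophages these switch on genes for cytokines, chemokines and enzymes such as the inducible nitric oxide synthase, while many genes of the resting state are switched off. The deposited tables list genes by Ensembl identifier alone, and the table of names used here holds 0 Ensembl identifiers. The results are therefore given for genes by rank and level, with 4 identifiers, and no gene is given a name or a role. For the same reason, markers of microglia and of other cell types were not examined, and the cell type rests on the labels.

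Total estimated counts were 12739790 to 16386274 per LPS library and 13083884 to 17262383 per Control library. The filter on low counts left 11902 of 30560 genes for testing. By edgeR's quasi-likelihood test, with a threshold of 0.05 on the adjusted p, LPS libraries differed from Control libraries in 74.7% of these genes (36.3% of those tested were higher and 38.4% lower), and counts below are read against this background. Genes higher by more than 1 log2 unit made up 11.2% of those tested and genes lower by more than 1 log2 unit 18.9%. In bulk RNA, fewer cells of a type and less RNA per cell cannot be told apart. The median within-group SD of log2 CPM (counts per 1000000 of the effective library size) was 0.136 in LPS and 0.131 in Control libraries, against a median absolute difference between groups of 0.565.

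The 4 genes given by identifier were those with the largest fold changes among genes that passed the test, averaged at least 20 CPM in the higher group and had groups that did not overlap, so the size and separation of their differences were fixed by the choice. ENSRNOG00000008478 had 258.5, 230.1, 235.6 and 194.6 CPM in LPS libraries 1 to 4, against 0 counts in each of the 4 Control libraries. All 4 LPS libraries were high, and no transcript was detected without LPS, where 0 counts over the group allow up to 0.0462 CPM. The level was at least 4960-fold higher in LPS libraries, against a floor of 3 counts over the Control group (edgeR adjusted p = 5.67e-17). ENSRNOG00000000838 had 870.5, 860, 952.8 and 917.8 CPM in LPS libraries, against 0, 0, 0.0551 and 0.0627 CPM in Control libraries. The 2 counts found without LPS came from Control 3 and Control 4, 1 from each. The ratio of pooled counts was 29370, with a 95% exact interval of 8131 to 242600 for counting error only (edgeR adjusted p = 4.11e-23).

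The 2 genes with the largest decreases by this rule had lower levels in the higher group than the 2 with the largest increases. ENSRNOG00000022067 had 0, 0, 0 and 0.0832 CPM in LPS libraries, against 22.1, 26.5, 22.9 and 17.4 CPM in Control libraries. Its only count with LPS came from LPS 4. Pooled counts were 1038-fold lower in LPS libraries, with a 95% exact interval of 185.9 to 41010 for counting error only (edgeR adjusted p = 1.47e-17). ENSRNOG00000011680 had 0.283, 0.379, 0.0738 and 0.333 CPM in LPS libraries, against 41.7, 41.6, 49.6 and 29.9 CPM in Control libraries. The log2 fold change was -7.26 (SE 0.32, edgeR adjusted p = 4.27e-15), and each LPS library had a few counts. All 8 values of each of these 4 genes were whole numbers.

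**Figure D1:**
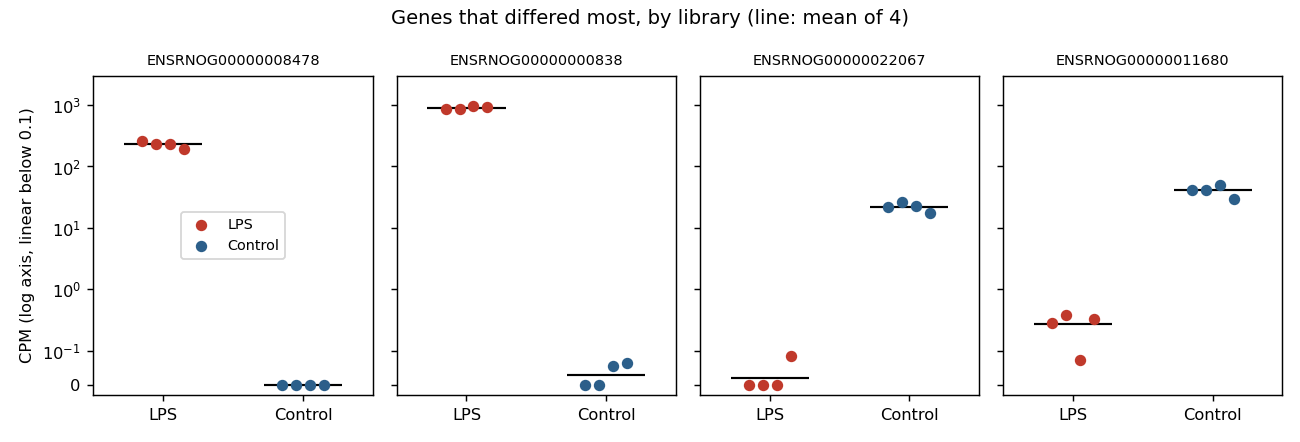
CPM of the 4 genes in each LPS and Control library (points; n = 4 per group), with the group mean as a line, on a log axis that is linear below 0.1 CPM. ENSRNOG00000008478 and ENSRNOG00000000838 were at 194.6 CPM or more in every LPS library, and ENSRNOG00000022067 and ENSRNOG00000011680 were at 0.379 CPM or less in every LPS library.

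Levels were next compared between genes as TPM (transcripts per 1000000), the authors' length-corrected unit, in which every library sums to the same total. Between the group means, 29.4% of all TPM lay in different genes with LPS and without it. Between single libraries the share was 28.8% to 32.9% over the 16 pairs of an LPS and a Control library. It was 2.99% to 6.79% over the 6 pairs of LPS libraries and 4.32% to 7.03% over the 6 pairs of Control libraries, so every pair across groups differed more than every pair within a group. The 100 most abundant genes of an LPS and of a Control library had 64 to 74 genes in common. Within LPS 91 to 98 were shared, and within Control 91 to 97.

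The gain in TPM was held by few genes and the loss was spread over many. Only 11 genes made up 50% of the summed TPM gain of genes higher in LPS, whereas 101 genes made up 50% of the summed loss. The 10 largest gains held 48.8% of the gain, and the 10 largest losses 15.6% of the loss. TPM sums to a fixed total, so large gains in a few genes lower the shares of other genes. A loss spread over many genes is thus in part built into the unit. Together the 11 genes took up 16.5% ± 0.172 of all TPM in LPS and 1.70% ± 0.0815 in Control libraries (SD, n = 4 each). They were chosen for their difference between the groups, so these shares describe them and are not a test. The levels of the 11 genes were close among LPS libraries, with an SD of 0.438% to 7.04% of the mean.

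One gene stood above all others in LPS libraries. It had 49044, 53830, 51981 and 49980 TPM in LPS libraries 1 to 4, against 1440, 1441, 1160 and 1827 TPM in Control libraries. It averaged 51209 ± 2134 TPM in LPS and 1467 ± 274 TPM in Control libraries (SD, n = 4 each), a ratio of 34.9 (edgeR adjusted p = 2.09e-18). It was also abundant without LPS, and it held 4.90% to 5.38% of all TPM in LPS libraries. The gene with the next largest gain averaged 19940 ± 250 TPM in LPS and 312 ± 66.5 TPM in Control libraries (SD, n = 4 each), a ratio of 63.9 (edgeR adjusted p = 7.07e-20). The third averaged 20406 ± 89.4 TPM in LPS and 1338 ± 568 TPM in Control libraries (SD, n = 4 each), a ratio of 15.3, and its Control libraries ranged from 834 TPM in Control 3 to 2154 TPM in Control 4.

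The 11 genes differed in where they started. In Control libraries 3 of them averaged over 1000 TPM and 5 under 100 TPM. The largest ratio belonged to the gene ranked 11, which had 4947, 4760, 5268 and 5582 TPM in LPS libraries, against 0.35, 3.34, 0.85 and 0.11 TPM in Control libraries. Its 4 LPS libraries lay close together, while its Control libraries spanned a wide range near zero, with Control 2 highest. The smallest ratio was 1.68, for a gene at 22298 ± 554 TPM in LPS and 13291 ± 532 TPM in Control libraries (SD, n = 4 each). In 7 of the 8 libraries its count was not a whole number, as when reads are divided between similar genes, so its level is uncertain.

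**Figure D2:**
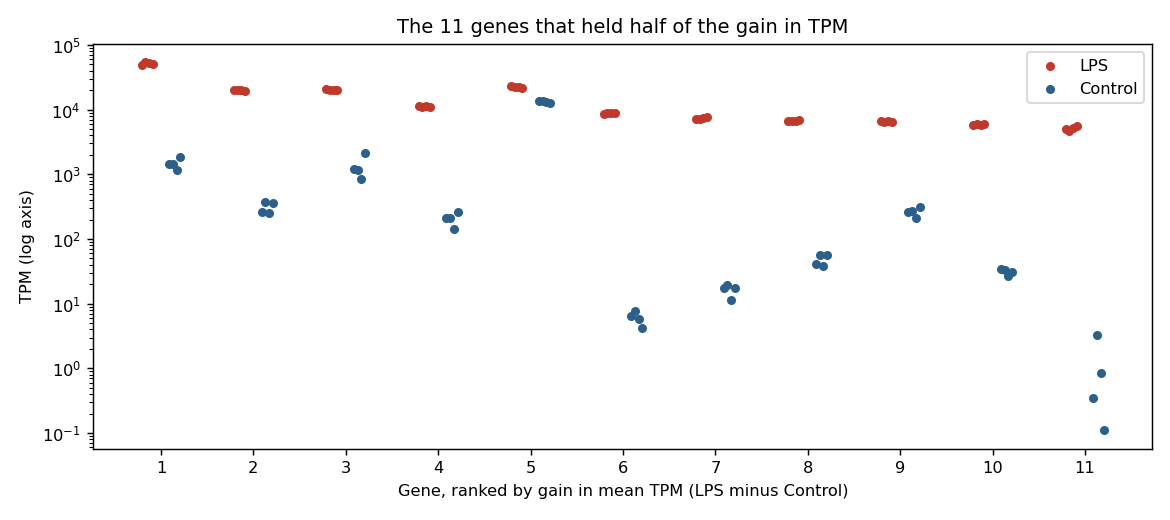
TPM in each library (points; n = 4 per group, log axis) of the 11 genes that held 50% of the TPM gain, ranked by the difference between group means, LPS at the left and Control at the right of each pair. All LPS points lie at 4760 TPM or higher, and Control points run from 0.11 to 13846 TPM.

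Of the losses, the largest was in a gene with 1876, 1721, 1814 and 2034 TPM in LPS libraries, against 15099, 14565, 15027 and 14112 TPM in Control libraries. Its Control libraries were all above its LPS libraries, and its mean ratio was 0.127 (log2 fold change of CPM -2.57, edgeR adjusted p = 1.38e-18). The gene with the loss ranked 5 in size averaged 198 ± 11 TPM in LPS and 3758 ± 107 TPM in Control libraries (SD, n = 4 each), a ratio of 0.0528 (edgeR adjusted p = 6.10e-21). Several of the other large losses were modest in proportion. The second averaged 8539 ± 367 TPM in LPS and 14035 ± 1440 TPM in Control libraries (SD, n = 4 each), a ratio of 0.608 (edgeR adjusted p = 0.0261). Its counts, and those of the losses ranked 4 and 7, were not whole in any of the 8 libraries, so these levels are uncertain. The third averaged 11258 ± 678 TPM in LPS and 15735 ± 948 TPM in Control libraries (SD, n = 4 each), a ratio of 0.715. It did not pass the test on TMM-scaled counts (log2 fold change -0.06, edgeR adjusted p = 0.537). TPM values are shares of a fixed total, whereas TMM takes its scale from a trimmed mean of the gene ratios.

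Genes were placed in 6 classes of mean TPM, with limits at 0.1, 1, 10, 100 and 1000 TPM and open classes at both ends. Of all listed genes, 25498 were in the same class in LPS and Control libraries, 16463 of them under 0.1 TPM in both. A higher class in LPS held 1345 genes and a lower class 3717. TPM values are shares of a fixed total of which the genes with the largest gains took more in LPS libraries. On TMM-scaled counts, over tested genes only, calls of any size were nearly even, with 36.3% higher and 38.4% lower. Calls of more than 1 log2 unit were not even, with 11.2% higher and 18.9% lower. By at least 2 classes 160 genes were higher and 242 lower, and by at least 3 classes 28 were higher and 8 lower. Unlike numbers of genes had room for such moves. By at least 1 class, 4.42% of 30397 genes with room were higher and 27.5% of 13515 lower. By at least 2 classes, 0.548% of 29203 were higher and 2.17% of 11131 lower. The 28 were 0.120% of 23258 genes that could rise by 3 classes from their Control class. The 8 were 0.110% of 7302 genes that could fall by 3. Genes with room to rise include the 16463 under 0.1 TPM in both groups, so shares in the 2 directions have unlike bases. By at least 4 classes, 5 of 19429 genes were higher and 0 of 1357 lower.

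**Figure D3:**
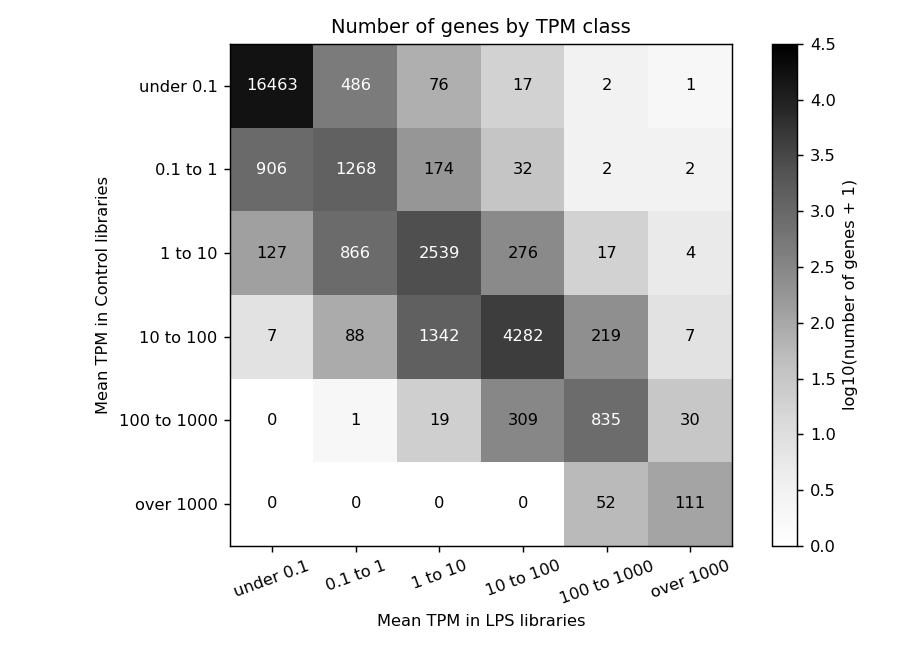
Number of genes by mean TPM in LPS libraries (columns) and in Control libraries (rows), for all 30560 listed genes, with darker shading for more genes. Cells above the diagonal hold genes in a higher class in LPS, which reach up to 5 classes away, and cells below it genes in a lower class, which reach 3 classes away.

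Sets were also chosen on single libraries, so that their separation is fixed by the choice. With every Control library under 1 TPM and every LPS library at 100 TPM or more, 6 genes were found. For comparison, all LPS libraries lay above all Control libraries in 32.9% of tested genes, and all lay below in 34.6%. These 6 genes averaged 118 to 1250 TPM in LPS and at most 0.772 TPM in Control libraries. The highest had 1249, 1312, 1216 and 1218 TPM in LPS libraries, against 0.3, 0.11, 0.17 and 0.19 TPM in Control libraries. With every Control library under 10 TPM and every LPS library at 1000 TPM or more there were 5 genes, and they took up 2.13% ± 0.0713 of TPM in LPS and 0.00119% ± 0.000285 in Control libraries (SD, n = 4 each).

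In the other direction, no gene with 100 TPM or more in every Control library was under 1 TPM in every LPS library, but 13 such genes were under 10 TPM. They averaged 1.85 to 9.10 TPM in LPS and 122 to 263 TPM in Control libraries, and their means were 21.4-fold to 86.0-fold lower in LPS libraries. The most abundant of them had 6.29, 6.06, 6.04 and 6.77 TPM in LPS libraries, against 273.4, 273.8, 272.3 and 231.4 TPM in Control libraries. The LPS libraries were within 1 TPM of each other, and Control 4 was the lowest of its group. From 10 TPM or more to under 1 TPM, 45 genes were lower in every LPS library, and 37 genes were higher in LPS by the same limits. By mean TPM in Control libraries, 19429 genes were under 1 TPM, 7302 at 10 TPM or more and 1357 at 100 TPM or more. The numbers of genes in the 2 directions thus come from unlike totals.

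The most abundant class changed in its members more than in its size. With 1000 TPM or more in every library of a group there were 141 genes in LPS and 150 in Control libraries, and 100 genes were on both lists, which is 70.9% of the LPS and 66.7% of the Control list. The 141 genes held 49.9% ± 1.06 of TPM in LPS and 39.9% ± 0.979 in Control libraries (SD, n = 4 each). The 150 genes held 39.6% ± 1.87 in LPS and 47.1% ± 1.64 in Control libraries (SD, n = 4 each). As each list was chosen in its own group, these shares are descriptions.

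The number of genes at or above 1 TPM was compared between libraries. A level of at least 1 TPM was reached by 10307, 10318, 10312 and 10391 genes in LPS libraries 1 to 4, against 11097, 11136, 11047 and 11091 genes in Control libraries. Every LPS library was below every Control library, with a difference of -761 genes (two-sided exact permutation test, p = 0.0286, which no arrangement of 4 and 4 libraries can go below; 0.0571 when adjusted by Benjamini-Hochberg for 3 measures of the whole profile). The measure thus missed the threshold after adjustment. With its p at the floor, it could pass only if another of the 3 measures also reached that floor. As a limit on shares of a fixed total, the measure does not separate lower expression of a gene from gains in others. Concentration of counts was measured in 2 ways. The number of genes that held 50% of the counts was 278, 296, 296 and 412 in LPS libraries, against 500, 556, 408 and 486 in Control libraries. LPS 4 and Control 3 overlapped, and the difference of -167 genes did not pass the test (exact permutation p = 0.0571, adjusted 0.0571). The 100 most abundant genes of each library held 35.5% ± 3.46 of counts in LPS and 29.6% ± 2.58 in Control libraries (SD, n = 4 each; exact permutation p = 0.0571, adjusted 0.0571).

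Beside these measures, 8 abundant genes that varied together within groups, chosen after their values had been seen, held 12%, 10.7%, 10.2% and 2.08% of counts in LPS libraries, against 7.46%, 4.05%, 11.9% and 8.09% in Control libraries. LPS 4 was the lowest of all 8 libraries and LPS 1 and Control 3 were the highest. The 8 genes were chosen for their variation within groups over all 16 libraries, so leaving them out lowers the spread within groups by construction. The p-values without them do not allow for this choice and are given as descriptions. With these 8 genes left out, the number of genes that held 50% of the counts was 419 ± 7.89 in LPS and 618 ± 9.14 in Control libraries (SD, n = 4 each), and the groups did not overlap (exact permutation p = 0.0286, adjusted 0.0286 over 3 measures). The share of the 100 most abundant genes was then 30.2% ± 0.339 in LPS and 24.5% ± 0.274 in Control libraries (SD, n = 4 each; exact permutation p = 0.0286, adjusted 0.0286).

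**Figure D4:**
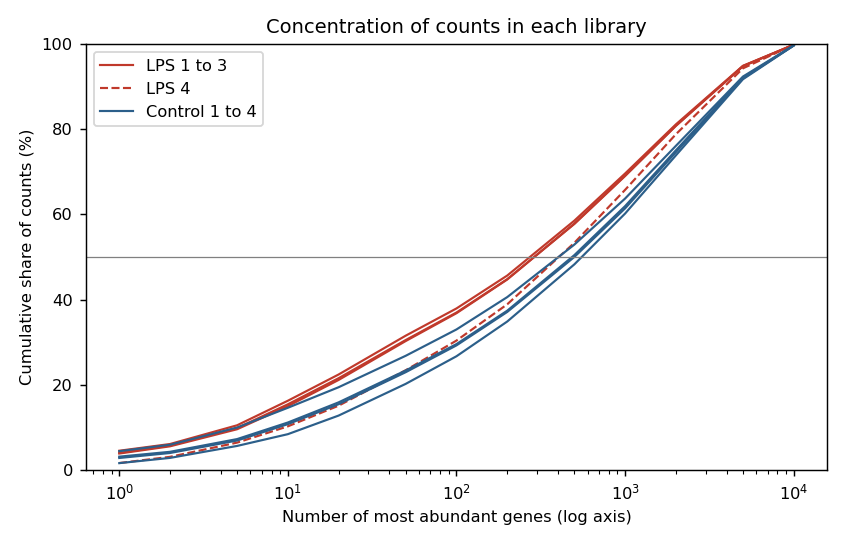
Cumulative share of counts (vertical axis, percent) held by the most abundant genes (horizontal axis, number of genes, log scale) in each LPS and Control library. LPS 1 to 3 reach 50% at 278 to 296 genes, LPS 4 at 412 genes, and Control libraries at 408 to 556 genes.

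The direction of the response varied with abundance. Tested genes were put into quintiles by their mean log2 CPM over the 2 groups. In the lowest quintile, with a median of 1.46 CPM, 14.2% of genes were higher and 40.4% lower by more than 1 log2 unit and passed the test. In the highest quintile, with a median of 147 CPM, 15.9% were higher and 6.34% lower. The median log2 fold change was -0.67 in the lowest quintile and 0.27 in the highest, against -0.04 over all tested genes. The widest changes were in the lowest quintile, with 1st and 99th percentiles of -7.08 and 8.5, against -2.73 and 3.54 in the highest. A gene with almost no counts in 1 group has a low mean log2 CPM because of its change. Genes low in every group were also removed by the filter on low counts. Wide changes in the lowest quintile are thus in part fixed by the ranking and the filter, and are a description.

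The median of each quintile depended on the scaling. With library totals in place of TMM, the median over all genes was -0.42, in the lowest quintile -1.05 and in the highest -0.11. On log2(TPM + 1) these medians were -0.37, -0.48 and -0.15, so the highest quintile was above the median of all genes under each scaling, while the sign of its own median was not the same. LPS libraries were higher in 48.6% of the genes called under TMM, but in 25.5% when scaled by library totals and in 23.6% by limma on log2(TPM + 1). Directions of small changes are therefore relative to the scaling. The highest quintile held more genes higher than lower by more than 1 log2 unit with TMM and with DESeq2 size factors, but with library totals 9.16% were higher and 10.9% lower, and on log2(TPM + 1) 8.78% were higher and 11.6% lower.

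**Figure D5:**
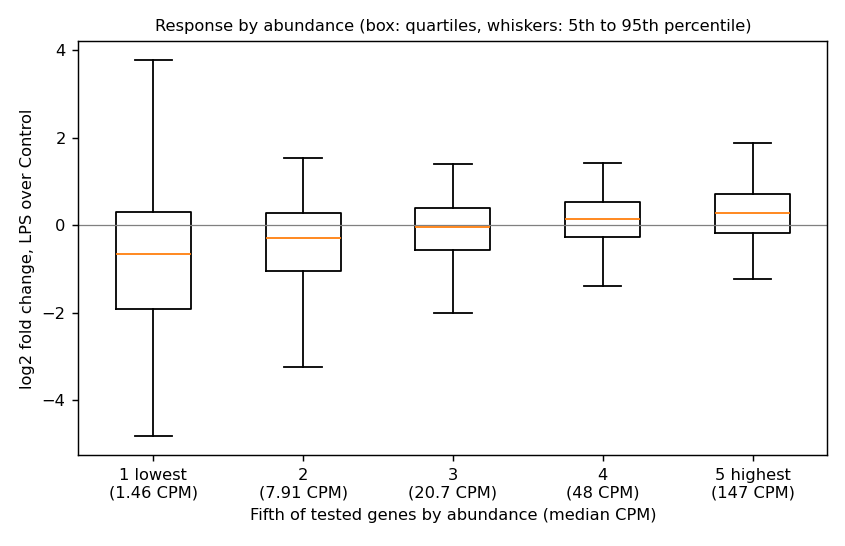
Log2 fold change of LPS over Control (vertical axis) in quintiles of the tested genes by abundance, with the median CPM of each quintile under its label. Lines are medians, boxes quartiles and whiskers the 5th and 95th percentiles over genes. Medians run from -0.67 in the lowest to 0.27 in the highest quintile with TMM scaling. The spread narrows, which the ranking by mean log2 CPM in part fixes.

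Each LPS library's difference from the Control mean was set against that of the other 3 LPS libraries over all tested genes, and the slopes were 0.982, 0.995, 0.983 and 0.976 for LPS 1 to 4. All 4 differences subtract the same Control mean, so slopes near 1 are in part built in and the values are a description. Across genes, Spearman's rho between TPM profiles was 0.864 to 0.880 for pairs of an LPS and a Control library, 0.991 to 0.993 within LPS and 0.990 to 0.994 within Control.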

How the data were processed

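The authors prepared RNA with the RNeasy Plus Micro kit, and Novogene prepared the libraries, per the labels' protocols. The authors deposited the expected count of each gene, in the form that RSEM writes, and TPM for the same genes and libraries. The submitters' processing notes name cutadapt 1.8.1, STAR 2.7.10b, RSEM 1.3.1 and a mouse build with no roles, whereas every identifier has the rat Ensembl prefix; the sources used here name no annotation, and an ill-fitting one would affect counts of single genes. Of the expected counts, 3.24% were not whole (tolerance 0.005), and all were rounded.

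Genes passing edgeR's filterByExpr (minimum count 10) were fitted in all 16 libraries as 4 groups, scaled by TMM, with the quasi-likelihood F test (edgeR 4.0.16, R 4.3.3; 12 residual degrees of freedom) and Benjamini-Hochberg adjustment over all tested genes. An SE is the size of the log2 fold change over the square root of F. The test was checked on simulated data in which few genes changed, so the check does not cover scaling where most genes differ. TPM moved is the sum of absolute TPM differences divided by 2, as a percent of the total. Per-library values were compared with two-sided exact permutation tests (scipy 1.17.1). Intervals and floors cover counting error only; Wilson 95% intervals of the share held by the 100 most abundant genes were at most 0.053 points wide. No pair of replicates agreed within counting noise (chi-square over degrees of freedom 3.92 to 92.3). This ratio was 3.92 to 5.14 among LPS 1 to 3, and 75.6 to 92.3 between LPS 4 and each of them. Within Control it was 10.4 to 57.6.

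The members, the rules and the planned lists were chosen with earlier results of these data known. The 28 planned gene lists and the cell type markers could not be applied, as identifiers had no names. The 4 identifiers are the 2 largest increases and 2 largest decreases in log2 fold change among genes that passed the test, averaged 20 CPM or more in the higher group and had groups that do not overlap. The TPM classes, the ranking by gain and loss, the quintiles and the profile measures were added after values had been seen. Alternatives were 2 other scalings, no filter on low counts, DESeq2 1.42.0, limma 3.58.1 on log2(TPM + 1), only the 8 libraries, the replicate block and leaving out each library.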

Additional observations from a re-analysis of the deposited data

Results flagged for a closer look

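Of 27 sets of 4 library values checked for a value far from the other 3, 4 stood out; chance alone gives about 1 in 20. LPS 4 accounted for all of them. It needed 412 genes to reach 50% of its counts, against 278 to 296 in the other LPS libraries. Its 100 most abundant genes held 30.4% of counts, against 36.8% to 37.9%. It had 10391 genes at 1 TPM or more, against 10307 to 10318. With the 8 genes that varied together left out, LPS 4 needed 430 genes and the other LPS libraries 412 to 420, and LPS 4 had 29.7% in its 100 most abundant genes and the others 30.3% to 30.5%. Its number of genes at 1 TPM or more remained as far from the others, at 10383 against 10299 to 10310. The last value was that of ENSRNOG00000022067, at 0.0832 CPM in LPS 4 and 0 in the other LPS libraries, which rests on 1 count.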

How the results depend on the processing

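The number of genes called between LPS and Control was 8602 to 9202 over 15 alternatives, against 8896, and 8645 to 8827 when 1 library was left out. The split by direction moved with the scaling. With library totals only, 2308 genes were higher in LPS, and 877 by more than 1 log2 unit. By limma on log2(TPM + 1), 2134 were higher and 6899 lower, and 696 were higher by more than 1 log2 unit. The pseudocount of 1 TPM also shrinks changes of low genes. The 4 identifiers kept their direction and an adjusted p of at most 7.80e-13 under all 15 alternatives. They were chosen for large differences in these same libraries, which in part fixes this. The log2 fold changes of the 4 identifiers near zero counts depend on the pseudocount and on single counts. That of ENSRNOG00000022067 was -9.52 in the main fit and -2.80 on log2(TPM + 1). It was -11.31 without LPS 4, which held its only count with LPS. With DESeq2 size factors it was -9.51 and with library totals -9.83. None of these values reversed; the median of the highest abundance quintile did, with 0.27 under TMM against -0.11 for library totals and -0.15 for log2(TPM + 1). Same-numbered LPS and Control libraries deviated together with correlations of -0.0456 to 0.176, and 2 of 4 correlated best with their own number. So few weak correlations cannot decide whether the numbers pair the samples. With the replicate block 8850 genes were called, 8789 of them among the 8896. Leaving out 1 library gave 11 or 12 genes for 50% of the TPM gain, 99 to 106 for 50% of the loss and 29.2% to 29.8% of TPM moved. The difference in genes at 1 TPM or more was then -746 to -780, where 3 against 4 libraries cannot give an exact p under 0.0571. Leaving out the 8 genes that varied together, an alternative chosen after seeing the data, gave 11 genes, 101 genes and 30.2%, and differences of -199 genes for 50% of counts and 5.73 points for the 100 most abundant genes. Depth limits the folds of genes with 1 or 2 counts in a group, whose intervals span more than a factor of 10.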

Other observations

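Some genes had counts in 1 group only, where 0 counts over a group allow up to 0.0462 CPM in Control and 0.0642 CPM in LPS libraries. The numbers of genes that could enter each set below were not counted, so the sizes of the sets are descriptions. With at least 10 counts in every LPS library and no counts in any Control library there were 31 genes, at 1.58 to 230 mean CPM in LPS libraries with a median of 3.37. Of these, 8 were over 10 CPM. With at least 10 counts in every Control library and no counts in any LPS library there were 21 genes, at 0.917 to 14.1 mean CPM in Control libraries with a median of 2.01, and 1 of them was over 10 CPM. All LPS libraries lay above all Control libraries in 32.9% of tested genes and below them in 34.6%.

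Control libraries differed in the genes that LPS raised most. Of the 11 genes that held 50% of the TPM gain, Control 3 had the lowest Control level in 8. Control 2 had the highest in 6 and Control 4 in 4. How often this held over all genes was not examined, so it cannot be called particular to these genes. The summed share of TPM of the 11 genes was 16.4% to 16.7% in LPS libraries, against 1.70%, 1.74%, 1.58% and 1.77% in Control 1 to 4. Control 3 also had the largest share of counts among Control libraries in the 8 genes that varied together, at 11.9%, and the part of this in the difference was not tested.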
